A study of Callithrix jacchus with 4 samples.

Results

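The NMDA receptor subunit genes examined here are GRIN1, GRIN2A, GRIN2B, GRIN2C, GRIN2D and GRIN3A. They were chosen by gene symbol, with earlier results of these data known, and all 6 have a row among the 35205 genes counted. NMDA receptors are glutamate-gated channels that pass calcium when glutamate and a co-agonist, glycine or D-serine, are bound and the membrane is depolarised. Each receptor joins the obligatory GRIN1 subunit with GRIN2 subunits, which bind glutamate and set channel kinetics, or with GRIN3 subunits, which lower calcium entry. In the maturing forebrain of rodents and primates GRIN2A rises relative to GRIN2B, so the ratio of these genes is often read as an index of synaptic maturation. The GRIN2A and GRIN2B mRNAs are among those that FMRP, the RNA-binding protein encoded by FMR1, has been found to bind in mouse brain.

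The study sequenced poly(A) RNA from the brains of common marmosets, Callithrix jacchus, taken on postnatal day 5. The FMR1 mutant group, generated by CRISPR/Cas9 editing, and the wild-type group had 2 libraries each. The design text describes the samples as forebrain, with cortex, striatum and hippocampus included, whereas the label of each library says only brain. The labels give neither the allele nor the sex, and they do not say whether each library came from its own animal. The p-values therefore cannot be read as measuring variation between animals.

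Each library held 12331639 to 13455702 counts, and GRIN2C, with 150 to 200 counts per library, was the member most exposed to counting error. FMR1 itself had 81.1 and 119 CPM (read counts scaled to a common library size) in the mutant libraries and 86.3 and 78.6 CPM in the wild-type libraries, with overlapping groups (log2 fold change 0.28, SE 0.15, edgeR adjusted p = 0.445). Its RNA therefore does not check the genotype labels. The forebrain label was looked at with marker lists. Of 8 hindbrain and spinal cord markers, 7 had no count in any library. Wild-type replicate 1 stood apart in the thalamic marker TCF7L2, at 95.95 CPM, against 9.01 and 8.98 CPM in the mutant libraries and 11.3 CPM in wild-type replicate 2.

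None of the 6 subunit genes passed the test of FMR1 mutant against wild-type libraries (edgeR quasi-likelihood test, Benjamini-Hochberg adjusted p under 0.05), and 0 of 6 passed by DESeq2 or limma-voom. Missing the threshold with 2 libraries a group does not show that a gene was unchanged. Among all 16956 genes tested, 2.23% passed. At an unadjusted p under 0.05 there were 2 members, GRIN1 and GRIN2A, both lower in the mutant libraries, beside 13.4% of all genes tested in either direction and 7.75% lower. The same 2 genes were the only members whose mutant and wild-type libraries did not overlap. Among all genes tested 43.1% did not overlap, 21.8% lower and 21.4% higher in the mutant libraries. With only 6 members, 2 is close to that background. The log2 fold change was negative for 4 members and positive for 2, with a median of -0.10 over the members and -0.00396 over all genes tested.

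**Figure D1:**
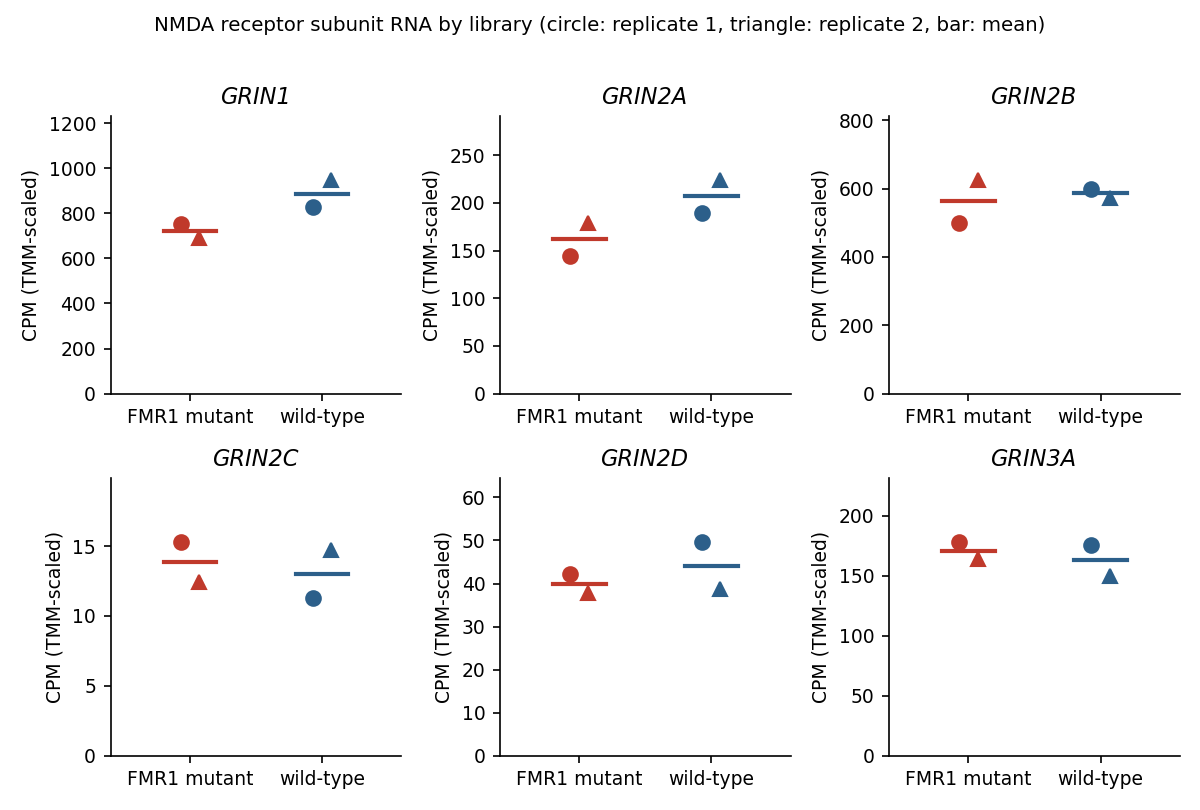
CPM of each NMDA receptor subunit gene (vertical axes, from 0) in FMR1 mutant and wild-type libraries, with a bar at each group's mean. For GRIN1 and GRIN2A each mutant library lies below each wild-type library, and the groups of the other 4 genes overlap.

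GRIN1 encodes the glycine-binding subunit without which no NMDA receptor reaches the cell surface. It was counted at 752 and 692 CPM in mutant replicates 1 and 2, against 829 and 947 CPM in wild-type replicates 1 and 2. Both mutant libraries lay below both wild-type libraries. The gap of 76.1 CPM between the nearest libraries of the groups was smaller than the 118 CPM between the wild-type libraries. The group means were 722 ± 42.4 CPM in mutant and 888 ± 83.7 CPM in wild-type libraries (SD, n = 2 each). On the log2 scale the fold change was -0.30 with an SE of 0.11 and a 95% interval from -0.53 to -0.07, and it missed the threshold (edgeR adjusted p = 0.191). It was -0.20 without wild-type replicate 2, the library with the most GRIN1, and -0.39 without wild-type replicate 1.

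GRIN2A encodes the GRIN2 subunit with the fastest channel closing, which enters synapses mainly after birth. Mutant replicates 1 and 2 had 145 and 179 CPM, and wild-type replicates 1 and 2 had 190 and 224 CPM. The groups did not overlap, but the gap of 11.2 CPM between mutant replicate 2 and wild-type replicate 1 was smaller than the distance within either group, 34.0 CPM in mutant and 33.9 CPM in wild-type libraries. The means were 162 ± 24.0 CPM in mutant and 207 ± 23.9 CPM in wild-type libraries (SD, n = 2 each). Among the members this was the largest log2 fold change, -0.35 (SE 0.12, 95% interval -0.61 to -0.10), which corresponds to 0.782 of the wild-type level (interval 0.656 to 0.932). It did not pass (edgeR adjusted p = 0.150), and its size hung on single libraries, at -0.21 without mutant replicate 1, -0.23 without wild-type replicate 2 and -0.51 without mutant replicate 2 (adjusted p = 0.0663).

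GRIN2B encodes the subunit that predominates in fetal and newborn forebrain and gives slow currents. It had 500 and 624 CPM in mutant replicates 1 and 2, against 599 and 574 CPM in wild-type replicates 1 and 2. The mutant libraries lay on either side of the wild-type pair and were 124 CPM apart, against 24.9 CPM between the wild-type libraries. The log2 fold change was -0.06 (SE 0.12, 95% interval -0.30 to 0.18, edgeR adjusted p = 0.895). That interval runs from 0.814 to 1.13 times the wild-type level. Without mutant replicate 1 the sign turned, at 0.09.

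GRIN2C encodes a subunit best known from cerebellar granule cells and from some glia. It was the least counted member, at 15.3 and 12.5 CPM in the mutant libraries and 11.3 and 14.7 CPM in the wild-type libraries, with overlapping groups. Its log2 fold change of 0.09 had the widest error of the members (SE 0.20, 95% interval -0.32 to 0.51, edgeR adjusted p = 0.910), and it was -0.09 without wild-type replicate 1 and -0.06 without mutant replicate 1. The cerebellar markers GABRA6, ATOH1 and BARHL1 were each under 1 CPM in all 4 libraries. The cerebellar list of 8 genes summed to 49.0 and 54.6 CPM in mutant and 96.03 and 54.1 CPM in wild-type replicates 1 and 2. In wild-type replicate 1 most of that sum came from ZIC1 at 42.5 CPM and ZIC2 at 30.3 CPM, transcription factors that are also expressed outside the cerebellum, while CBLN3 was at 1.81 CPM.

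GRIN2D encodes a subunit of long-lasting currents that is found early in development, in interneurons and in the diencephalon. Mutant replicates 1 and 2 had 42.1 and 37.8 CPM, and wild-type replicates 1 and 2 had 49.6 and 38.8 CPM. The groups overlapped, and wild-type replicate 1 was highest. The log2 fold change was -0.15 (SE 0.15, 95% interval -0.44 to 0.15, edgeR adjusted p = 0.735), and 0.04 without wild-type replicate 1. That library also held the most thalamic RNA: the list of 8 thalamic markers summed to 240.2 and 239 CPM in the mutant libraries and to 384 and 210 CPM in wild-type replicates 1 and 2. The part of thalamic tissue in the GRIN2D value was not tested. The 8 interneuron markers summed to 655 and 637 CPM in mutant and 692 and 723 CPM in wild-type replicates 1 and 2. Of the 8, 2 were lower past the threshold by edgeR (GAD2 and PVALB) and none higher. By DESeq2 1 fell, and by limma-voom 2 fell. PVALB was low, at 2.37 and 1.63 CPM in mutant and 5.05 and 6.51 CPM in wild-type libraries. Log2 fold changes in the list were negative for 5 genes and positive for 3.

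GRIN3A encodes a glycine-binding subunit that in rodents peaks in early postnatal life and is linked to the holding back of synapse maturation. It had 178 and 164 CPM in the mutant libraries and 176 and 150.2 CPM in the wild-type libraries. The groups overlapped, with wild-type replicate 2 lowest. The log2 fold change was 0.07 (SE 0.12, 95% interval -0.17 to 0.31, edgeR adjusted p = 0.879), and -0.04 without wild-type replicate 2. Its paralog GRIN3B was counted 12 and 6 times in mutant and 9 and 6 times in wild-type libraries and was too low to be tested.

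**Figure D2:**
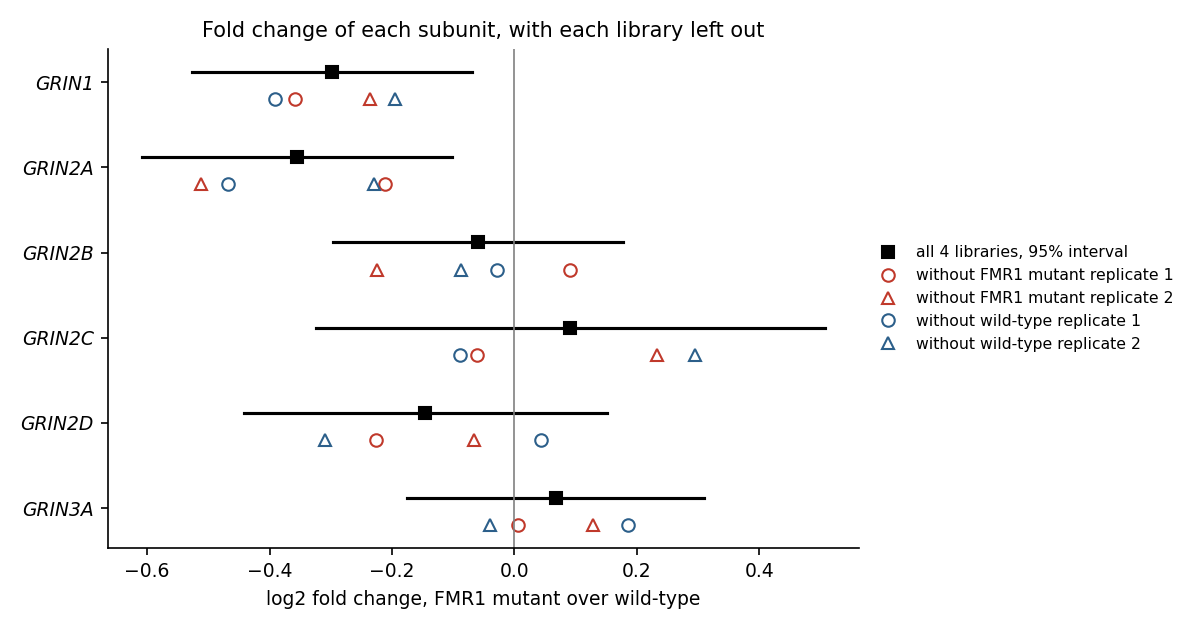
Log2 fold change (horizontal axis, FMR1 mutant over wild-type) of each subunit gene, with squares and lines for all 4 libraries and their 95% interval and open symbols for the fits that leave out 1 library. GRIN1 and GRIN2A stay below 0 in each of these fits, while GRIN2B, GRIN2C, GRIN2D and GRIN3A lie on both sides of 0. The groups of GRIN1 and GRIN2A do not overlap, so leaving out 1 library could hardly bring them above 0.

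The GRIN2A to GRIN2B ratio was taken within each library, so it does not depend on how libraries are scaled to each other. It is a ratio of counts, not corrected for transcript length, and can be compared between libraries but not read as a ratio of molecules. The ratio was 0.289 and 0.286 in mutant replicates 1 and 2, against 0.317 and 0.390 in wild-type replicates 1 and 2. The mutant libraries were nearly alike and both lay below the wild-type libraries, which differed more from each other (0.30 on the log2 scale) than wild-type replicate 1 did from the nearest mutant library (0.13). The mean log2 ratio was -1.80 ± 0.01 in mutant and -1.51 ± 0.21 in wild-type libraries (SD, n = 2 each), a difference of -0.29. An exact two-sided permutation test over the 4 libraries gave p = 0.333, the smallest p that 2 against 2 libraries allow. The difference was -0.14 without wild-type replicate 2 and -0.44 without wild-type replicate 1. A limma fit of every tested gene's ratio to GRIN2B gave an unadjusted p of 0.290 for GRIN2A (adjusted p = 0.999). GRIN2B is the base of every ratio in that fit, so its own variation between libraries enters all of them and both p-values.

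As a share of the counts of both genes, GRIN2A made up 22.4% (exact 95% interval 21.5 to 23.3%) in mutant replicate 1 and 22.2% (21.5 to 23.0%) in mutant replicate 2. The share was 24.1% (23.3 to 24.9%) in wild-type replicate 1 and 28.1% (27.2 to 29.0%) in wild-type replicate 2. These Clopper-Pearson intervals cover counting error only. The intervals of the wild-type libraries did not overlap, so these libraries differed from each other by more than counting error. Mutant replicate 1 (upper limit 23.33%) and wild-type replicate 1 (lower limit 23.27%) had overlapping intervals. The interval of mutant replicate 2 (upper limit 23.04%) did not overlap that of wild-type replicate 1.

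**Figure D3:**
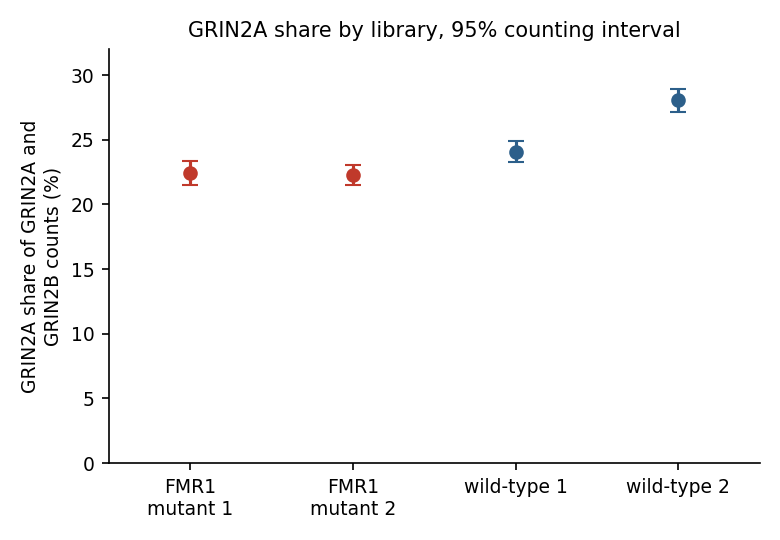
GRIN2A share of the summed GRIN2A and GRIN2B counts (vertical axis, percent) in each library, with exact 95% counting intervals. The mutant libraries sit at 22.4% and 22.2%, wild-type replicate 1 at 24.1% and wild-type replicate 2 at 28.1%.

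Among the counts of all GRIN2 genes, GRIN2D made up 5.999% and 4.43% in mutant replicates 1 and 2 and 5.84% and 4.56% in wild-type replicates 1 and 2. GRIN2C made up 2.17% and 1.46% in mutant and 1.33% and 1.73% in wild-type libraries. Both shares overlapped between the groups. The summed GRIN2 counts were 0.934 and 1.23 times those of GRIN1 in the mutant libraries, against 1.02 and 0.898 times in the wild-type libraries. This ratio overlapped as well. The GRIN3A to GRIN1 ratio was 0.2365 in each of the mutant libraries, against 0.212 and 0.159 in the wild-type libraries, higher in both mutant libraries, with a mean log2 difference of 0.37. The difference was 0.16 without wild-type replicate 2 and 0.58 without wild-type replicate 1, and it was described without a test. GRIN3A alone overlapped between the groups (log2 fold change 0.07), while GRIN1 was lower in both mutant libraries (-0.30). The ratio is therefore not separate from the GRIN1 value, and no share over other gene pairs was computed. The GRIN2D to GRIN2B ratio was 0.0842 and 0.0605 in mutant and 0.0828 and 0.0676 in wild-type libraries, with overlapping groups.

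Other gene pairs known to shift as neurons mature were set beside the GRIN2A to GRIN2B ratio, each as the later over the earlier partner. The ratio of DLG4, the scaffold PSD-95, to DLG3, the scaffold SAP102, was 4.51 and 4.09 in mutant and 4.44 and 4.92 in wild-type libraries, with overlapping groups. The chloride exporter SLC12A5 over the chloride importer SLC12A2 gave 4.47 and 4.59 in mutant and 3.28 and 4.94 in wild-type libraries, with overlap. The sodium channels SCN8A over SCN3A gave 1.13 and 0.924 in mutant libraries, below 1.26 and 1.61 in wild-type libraries. With GRIN2A over GRIN2B, 2 of 4 ratios were thus lower in both mutant libraries and 2 overlapped. No such share was computed over other gene pairs. Among single genes tested 43.1% did not overlap, 21.8% being lower in the mutant libraries, so the count of ratios carries little weight. All 4 ratios come from the same 4 libraries and are not separate pieces of evidence. Wild-type replicate 2 had the highest value in 4 of 4. None of the 6 other genes passed by edgeR, the lowest adjusted p being 0.0839 for SLC12A2. Both genes of that pair had negative log2 fold changes, -0.48 for the earlier partner SLC12A2 and -0.31 for the later partner SLC12A5.

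**Figure D4:**
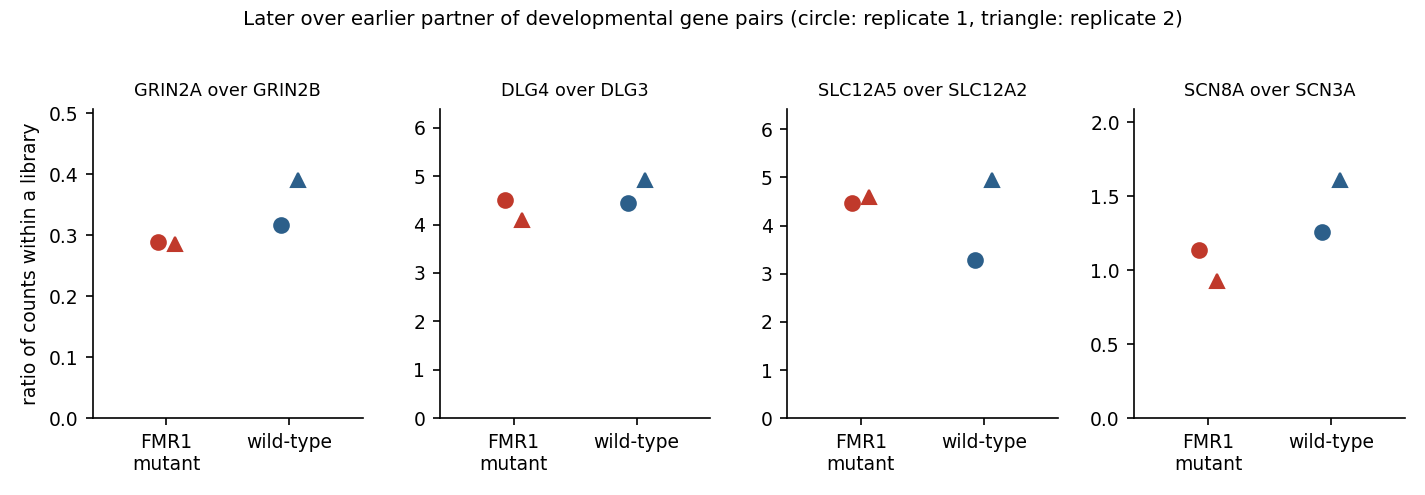
Count ratio of the later to the earlier partner of 4 gene pairs (vertical axes, from 0) in FMR1 mutant and wild-type libraries. Wild-type replicate 2, the blue triangle, is highest in each panel, and the mutant libraries lie below both wild-type libraries for GRIN2A over GRIN2B and SCN8A over SCN3A.

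Some lists of cell type markers also differed between the groups. The 8 excitatory cortical neuron markers summed to 2391 and 2388 CPM in mutant and 2041 and 2301 CPM in wild-type replicates 1 and 2. Their log2 fold changes were positive for 6 and negative for 2. Of these 8, NEUROD6 rose by edgeR (adjusted p = 0.0469), 2 genes rose by DESeq2, and none rose by limma-voom. The 7 newborn neuron markers summed to 2661 and 2741 CPM in mutant and 2190 and 1870.2 CPM in wild-type replicates 1 and 2, and 2 of them rose, DCX and CD24. The 8 myelin markers summed to 1357 and 1306 CPM in mutant and 3563 and 3491 CPM in wild-type libraries, and all 8 fell. Wild-type replicate 2, highest in GRIN1 and GRIN2A, was lowest in newborn neuron markers. In bulk tissue, fewer cells of a type and less RNA per cell cannot be told apart, and the part of cell composition in the GRIN1 and GRIN2A values was not tested.

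The summed counts of the 6 members were set against other neuronal RNA, without a test. They were 0.162 and 0.172 of those of 11 pan-neuronal genes in mutant replicates 1 and 2, against 0.188 and 0.203 in wild-type replicates 1 and 2. The groups did not overlap, and the mean difference was -0.23 on the log2 scale. By gene, only GRIN1 and GRIN2A were lower in both mutant libraries on this measure, by a mean of -0.34 and -0.40, and the other 4 overlapped. Without wild-type replicate 2 these differences were -0.23 for GRIN1 and -0.27 for GRIN2A, and without mutant replicate 1 that of GRIN2A was -0.24. These are the genes that did not overlap in CPM either, and no share over all genes tested was computed for this measure. The pan-neuronal sum itself was 10100 and 9968 CPM in mutant and 9849 and 9592 CPM in wild-type libraries. Its largest part was STMN2, a growth-associated protein of young neurons, at 3059 and 2902 CPM in mutant and 2560 and 2232 CPM in wild-type libraries. UCHL1 and GAP43 were also higher in both mutant libraries, while SNAP25, SYT1 and NEFM were lower in both. The part of these genes in the difference was not tested. With the median pan-neuronal gene as the base in place of the sum, the difference was -0.32.

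Other genes of the pathway were taken from 7 lists of 90 genes, of which 87 were tested. Of these, 5 fell and 0 rose (edgeR adjusted p under 0.05), beside 1.57% of all genes tested that fell and 0.661% that rose. Their median log2 fold change was -0.06. The lists were chosen with earlier results of these data known. Setting their counts beside the shares over all genes is therefore a description, not a test.

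**Figure D5:**
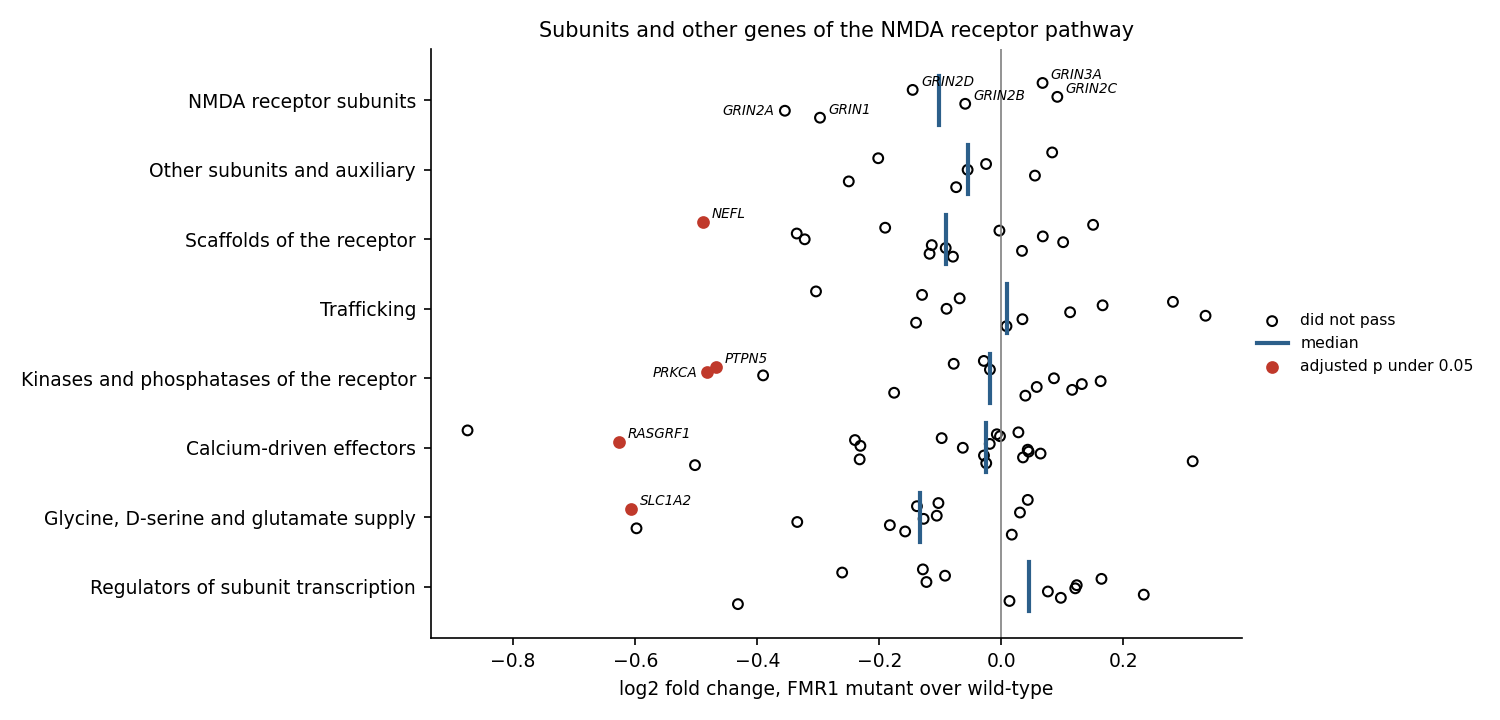
Log2 fold change (horizontal axis, FMR1 mutant over wild-type) of the subunit genes and of the tested genes of 7 pathway lists, with filled points for genes past an adjusted p of 0.05 and a bar at each median. The 5 filled points, NEFL, PRKCA, PTPN5, RASGRF1 and SLC1A2, all lie below 0, and none of the subunits is among them.

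Of 13 scaffolds and anchors, 1 fell (median log2 fold change -0.09). It was NEFL, the light neurofilament chain, which binds the tail of GRIN1 and is also a main part of the axonal skeleton. NEFL had 579 and 575 CPM in mutant and 892 and 727 CPM in wild-type libraries (-0.49, SE 0.12, edgeR adjusted p = 0.0151). It passed in 1 of the 4 fits with a library left out, that without wild-type replicate 2, and was furthest from the threshold without wild-type replicate 1 (adjusted p = 0.335). The PSD-95 family scaffolds did not pass, among them DLG4 at -0.09 and DLG3 at 0.03.

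Among 19 calcium-driven effectors, 1 fell (median -0.02). RASGRF1, a calcium-dependent activator of Ras that binds GRIN2B, had 124 and 140 CPM in mutant libraries, against 208 and 199 CPM in wild-type libraries. Its log2 fold change was -0.63 (SE 0.12, edgeR adjusted p = 0.00149), and it passed whichever library was left out. CAMK2A, the kinase that docks on GRIN2B, had 269 and 350 CPM in mutant and 336 and 542 CPM in wild-type libraries, with overlapping groups (-0.50, SE 0.30, adjusted p = 0.613). By DESeq2 and by limma-voom 2 genes of the list fell, RASGRF1 and ITPKA, a calmodulin-regulated kinase of dendritic spines. ITPKA did not pass by edgeR (-0.87, SE 0.27, adjusted p = 0.192), with 20.7 and 23.7 CPM in mutant and 29.0 and 52.6 CPM in wild-type libraries. CAMK2A and ITPKA are named beyond the rule, after their values were seen.

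Of 13 kinases and phosphatases that act on the receptor, 2 fell (median -0.02). PRKCA, a protein kinase C, had 137 and 131 CPM in mutant and 184 and 189 CPM in wild-type libraries (-0.48, SE 0.12, edgeR adjusted p = 0.0168). PTPN5, the phosphatase STEP that removes GRIN2B-containing receptors from the surface, had 104 and 120 CPM in mutant and 137 and 173 CPM in wild-type libraries (-0.47, SE 0.13, adjusted p = 0.0435). PRKCA passed in none of the 4 fits with a library left out (edgeR adjusted p of 0.0512 to 0.103). PTPN5 passed in 1, that without wild-type replicate 1, and was at 0.439 without wild-type replicate 2. It did not pass by DESeq2 (adjusted p = 0.0839) or limma-voom (0.0620).

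Of 12 tested genes that supply or clear glutamate, glycine or D-serine, 1 fell (median -0.13). SLC1A2, the astrocyte transporter that clears glutamate, had 1178 and 1326 CPM in mutant and 1918 and 1896 CPM in wild-type libraries (-0.61, SE 0.11, edgeR adjusted p = 9.68e-04), and passed whichever library was left out. It is also an astrocyte marker. The 8 astrocyte markers all had negative log2 fold changes. They summed to 3140 and 3484 CPM in mutant and 4453 and 4299 CPM in wild-type libraries. That sum includes SLC1A2, the only 1 of the 8 past the threshold, so it is not separate from the SLC1A2 value. AQP4 (-0.10), SLC1A3 (-0.14) and SOX9 (-0.07) overlapped between the groups, while GFAP, ALDH1L1, GJA1 and S100B were lower in both mutant libraries. The part of astrocyte number in the SLC1A2 value was not tested.

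The remaining 3 lists had 0 genes past the threshold by edgeR, DESeq2 or limma-voom. At an unadjusted p under 0.05 by edgeR there were 3 trafficking genes and 0 in each of the other lists. Of 7 other subunits and auxiliary proteins, the smallest p was that of NETO1, an accessory protein of glutamate receptors, at -0.25 (SE 0.13, edgeR adjusted p = 0.409). Of 11 trafficking genes it was LIN7C, part of the complex that carries GRIN2B along microtubules, at 0.33 (SE 0.11, adjusted p = 0.133), with 336 and 368 CPM in mutant and 292 and 266 CPM in wild-type libraries. Of 12 regulators of subunit transcription it was ERBB4, the neuregulin receptor, at -0.26 (SE 0.13, adjusted p = 0.383).

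Genes with the most similar profile over the 4 libraries were looked up among 10261 tested genes with a symbol and a mean of at least 10 CPM over the 4 libraries, by the distance between centred log2 values. For GRIN2A they were STAB1 (distance 0.03), IL1RAPL2 and RRP7A (0.04 each). For GRIN2B they were ZNFX1 (0.02), LRRC7 (0.03), which encodes the postsynaptic scaffold densin-180, and GUCY1A2 (0.03). LRRC7 had 226 and 277 CPM in mutant and 264 and 259 CPM in wild-type libraries, with the low mutant replicate 1 and high mutant replicate 2 also seen for GRIN2B. With 4 libraries such likeness is a description.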

How the data were processed

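Per the labels' protocols, poly(A) RNA purified with TRIzol and treated with DNase went into strand-keeping libraries. Trimmomatic 0.38 and STAR 2.7.10a appear in the submitters' processing notes. The sources used here name no counting tool, genome build, annotation or strand rule. What the authors deposited are raw counts per gene, with no normalization, for 4 libraries. In the RefSeq table (assembly calJac240_pri) 3 members overlap another gene, and these had at most 42 counts per library. Transcript lengths were not used here, so levels are not compared between genes.

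Columns were matched to samples by label. Counts were analysed with R 4.3.3 and edgeR 4.0.16: filterByExpr (minimum count 10), TMM, the quasi-likelihood test with robust = TRUE, and Benjamini-Hochberg adjustment over 16956 genes. CPM uses the TMM-scaled library size. SE is the log2 fold change divided by the square root of F. The fit draws each gene's spread largely from other genes (median prior degrees of freedom 31.6, residual 2). The test was checked on simulated data. Replicates differed by more than counting noise (chi-square per degree of freedom 6.90 for mutant and 7.28 for wild-type libraries). Pathway lists named all passing genes, or the gene with the smallest p where none passed. The members and lists were chosen with earlier results of these data known. Alternatives were other scalings, DESeq2 1.42.0, limma 3.58.1 (voom), robust = FALSE, other filters, a replicate block, an adjusted p of 0.1, and each library left out, on the same 16956 genes. A planned gene pair ratio is not reported here.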

Additional observations from a re-analysis of the deposited data

How the results depend on the processing

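None of the 84 log2 fold changes of the 6 subunit genes under 14 alternatives passed its threshold, the lowest adjusted p being 0.0663 for GRIN2A. GRIN1 and GRIN2A were lower under all 14, at -0.39 to -0.20 and -0.51 to -0.21. For both genes each mutant library lay below each wild-type library, so leaving out 1 library could hardly turn the sign. The adjusted p of 0.1 leaves the estimate itself unchanged. With 1 library left out, GRIN2B lay at -0.23 to 0.09, GRIN2C at -0.09 to 0.29, GRIN2D at -0.31 to 0.04 and GRIN3A at -0.04 to 0.19. These 4 turned sign without mutant replicate 1 (GRIN2B 0.091, GRIN2C -0.062), wild-type replicate 1 (GRIN2C -0.088, GRIN2D 0.044) or wild-type replicate 2 (GRIN3A -0.040), and the cause was not tested. The GRIN2A to GRIN2B difference stayed negative, at -0.44 to -0.14. The groups did not overlap in that ratio, so leaving out 1 library could not turn its sign. The difference relative to pan-neuronal genes was -0.29 to -0.18 with 1 library left out and -0.32 with the median gene as base. Leaving out libraries from the GRIN3A to GRIN1 ratio and from the GRIN1 and GRIN2A ratios to pan-neuronal genes was chosen after seeing the data.

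Over all genes, 378 changed, against 244 by DESeq2, 633 without a low-count filter, 624 at an adjusted p of 0.1, and 163 to 562 with 1 library left out. With 1 library left out, the counts per pathway list ranged from 0 to 1 for scaffolds (1 with all libraries), 0 to 1 for kinases and phosphatases (2 with all), 1 to 3 for calcium effectors (1 with all) and 1 to 2 for transmitter supply (1 with all).

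Nothing in the labels says that a replicate number marks a shared animal or batch, and deviations of same-numbered libraries correlated at 0.02 across genes. With the replicate block 493 genes changed, GRIN2A was at -0.36 (adjusted p = 0.0956), and no member passed. GRIN2C has the fewest counts, so its value is the most limited by depth.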
